A study of Homo sapiens with 24 samples.

Results

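The response to CRISPR interference (CRISPRi) against FAM167A, also called DIORA1, was compared between SK-N-SH and SK-N-AS, established lines from human neuroblastoma. The 14 CRISPRi libraries of the 24 in the study were chosen, and 19862 genes were tested of the 60315 whose Ensembl identifiers were listed for both lines. In SK-N-SH, 3 libraries with a guide RNA against FAM167A (sgDIORA1) were set against 3 with the control guide sgGal4. In SK-N-AS, 4 libraries with sgDIORA1 were set against 4 with sgGal4. All of these cells, controls included, received the SpCas9-KRAB system. Neither the number of guides nor whether the cells were pools or single clones is given in the sources used here. Another 5 SK-N-SH libraries with a non-targeting siRNA served only as a further measure of control level in that line.

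In CRISPRi, a Cas9 protein that binds but does not cut DNA carries the KRAB repressor domain to a promoter and lowers transcription there. Neuroblastoma cells occupy 2 broad identities: an adrenergic one, run by HAND2, GATA2 and GATA3 and marked by genes of noradrenaline synthesis and secretory granules, and a mesenchymal one, marked by PRRX1, vimentin, extracellular matrix and actin stress fibre genes. SK-N-SH cultures are known to mix neuroblast-like cells with flat, strongly adherent cells. Since these are bulk RNA libraries, fewer cells of a type and less RNA per cell cannot be told apart in any result below.

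The SK-N-SH libraries held 11690515 to 21628076 reads in genes and the SK-N-AS libraries 29985858 to 104455853. Levels are given in CPM (counts per 1e+06 reads of a library, after its TMM scaling factor). Line, depth, gene annotation and depth of knockdown all differed between the experiments, so an effect of the line cannot be told apart from these. Nothing in the labels says that replicates came from separate cultures, and the p-values then measure only the spread between these libraries. The neuroblastoma markers PHOX2A, HAND2, GATA3, ISL1, CHGA and STMN2 were read at 28.8 to 609 CPM in the controls of both lines. TH, the first enzyme of noradrenaline synthesis, was at or near 0 in both (2 reads over the SK-N-SH controls, 182 over the SK-N-AS controls). DBH, the last enzyme of that synthesis, stood at 621 CPM in SK-N-SH controls and 12.8 in SK-N-AS controls. Of markers of other cells, SOX10 and FOXD3 (glia), KRT5 and ESRP1 (epithelium), and CD3E, HBB and HBA1 (blood) had no read in either line. PTPRC, a blood cell marker, stood at 539 CPM in SK-N-AS controls against 0.611 in SK-N-SH controls. The summed level of the glial markers went from 106 to 111 CPM in SK-N-SH controls to 76.6 to 77.5 CPM after knockdown, and from 37.2 to 41.6 CPM to 40.0 to 45.6 CPM in SK-N-AS. That of the epithelial markers went from 82.1 to 87.9 CPM to 162 to 170 CPM in SK-N-SH, where KRT18 and KRT8 rose. In SK-N-AS it went from 141 to 150 CPM to 138 to 149 CPM. CLDN4 fell in both lines, and EPCAM and KRT19 were called in neither. The median log2 fold change of the 5 tested epithelial markers was -0.52 in SK-N-SH and -0.05 in SK-N-AS. The part of these markers of other cells in the results was not tested.

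FAM167A (ENSG00000154319, GRCh38 chromosome 8, 11421476 to 11475908, minus strand) was read at 227, 255 and 244 CPM in the SK-N-SH controls and at 3.83, 3.30 and 2.65 after knockdown. In SK-N-AS it was read at 98.6, 90.0, 93.3 and 96.8 CPM in controls and 10.9, 10.3, 9.19 and 10.3 after knockdown. Every knockdown library lay below every control, and the fall was the deeper one in SK-N-SH. The log2 fold change was -6.22 ± 0.084 (SE) in SK-N-SH and -3.22 ± 0.047 in SK-N-AS, a difference of -3.002 ± 0.12 (edgeR quasi-likelihood test, Benjamini-Hochberg adjusted p = 8.92e-26).

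A gene is said to have risen or fallen where its adjusted p was under 0.05 in that line, and 2 responses are said to differ where the adjusted p of the difference itself was under 0.05. In SK-N-SH 4313 genes rose (21.7% of those tested) and 3994 fell (20.1%). In SK-N-AS 2987 rose (15%) and 2775 fell (14%). Responses were larger in SK-N-SH: over the 12543 genes at 1 CPM or more in both sets of controls, the median size of the log2 fold change was 0.22 in SK-N-SH and 0.10 in SK-N-AS. The share of reads in mitochondrial genes was 4.66% to 5.49% in SK-N-SH controls and 5.72% to 6.56% after knockdown, and 6.92% to 7.56% and 6.84% to 7.63% in SK-N-AS. The part of this shift in the SK-N-SH response was not tested. The genes called in both lines numbered 3641, which was 43.8% of those called in SK-N-SH and 63.2% of those called in SK-N-AS. Of these 3641 genes, 77.1% moved the same way. That gave 1469 genes that rose in both lines and 1339 that fell in both, 14.1% of the tested genes together. The 438 genes that rose in SK-N-SH and fell in SK-N-AS, and the 395 that did the reverse, made up 4.19%. Across the 12543 genes the responses had a Pearson r of 0.34 and a Spearman coefficient of 0.37, a description over genes, which are not independent.

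**Figure D1:**
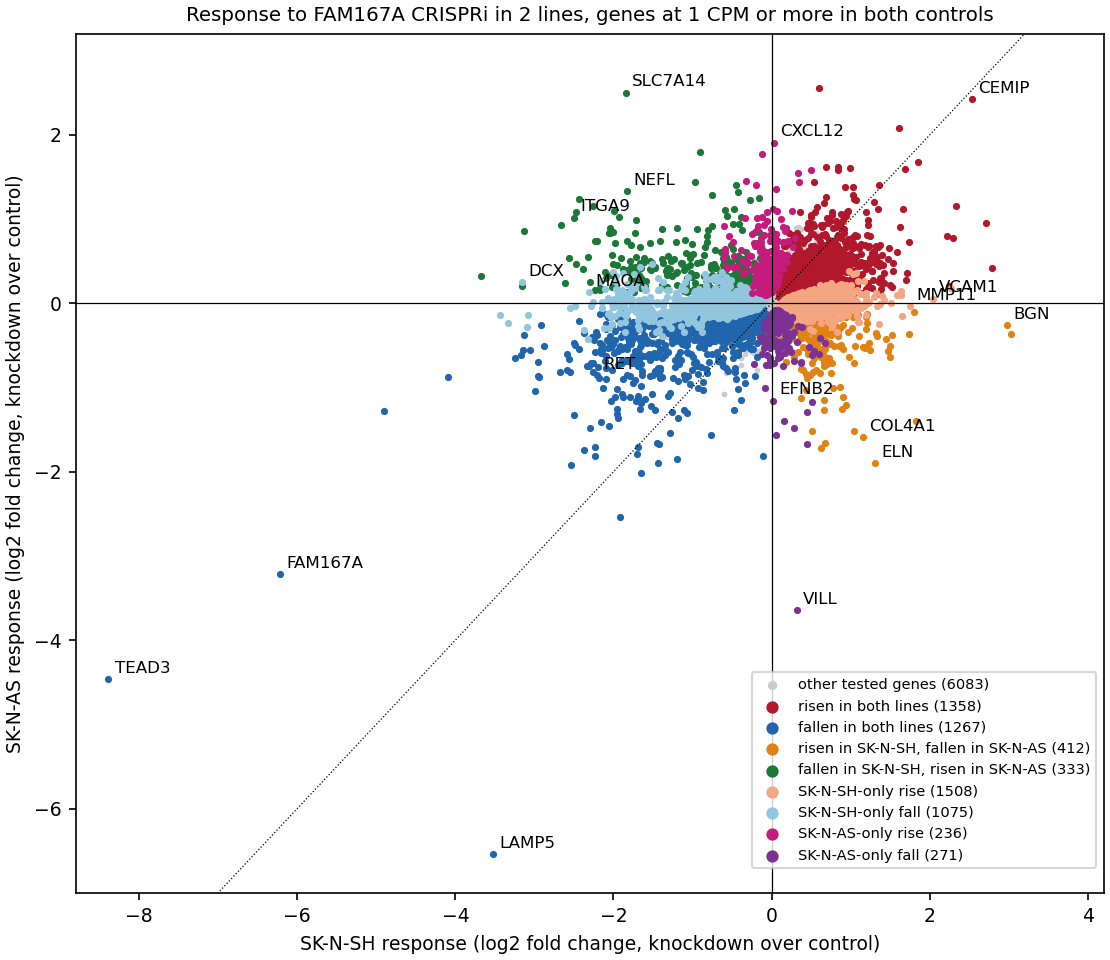
Each point is 1 of the 12543 genes at 1 CPM or more in the controls of both lines; the x axis is the log2 fold change, knockdown over control, in SK-N-SH and the y axis that in SK-N-AS, coloured by response class, with equal response on the dotted line. FAM167A, TEAD3 and LAMP5 lie far into the quadrant of shared falls, COL4A1 and ELN in that of SK-N-SH rise and SK-N-AS fall, and SLC7A14, ITGA9 and NEFL in the reverse one.

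The difference of responses was called for 6098 genes (30.7%). The SK-N-SH response was the higher for 3178 (16.0%) and the lower for 2920 (14.7%). With library totals as the only scaling these counts became 1813 and 4932, so that the share of higher calls went from 52.1% to 26.9%. That scaling moved the median difference over expressed genes from 0.02 to -0.12 on the log2 scale. Of the genes that rose in both lines, 682 rose more in SK-N-SH, 79 rose more in SK-N-AS and 708 had no called difference. The genes that fell in both divided likewise: 641 fell more in SK-N-SH, 23 fell more in SK-N-AS and 675 had no called difference. A change is called line-only here where 1 line was called, the other was not, and the difference was called as well. SK-N-SH had 1640 such rises and 1394 such falls (15.3% together), and SK-N-AS 329 rises and 300 falls (3.17% together). A further 1632 genes called in SK-N-SH and 1492 called in SK-N-AS had no called difference, and so are not counted as line-only.

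Leading genes were taken among those at 5 CPM or more in at least 1 group whose knockdown and control libraries did not overlap in any line where they were called. The 6 that rose in SK-N-SH and fell in SK-N-AS with the largest smaller response were NIPAL4, EYA4, ELN, COL4A1, COL4A2 and SLC16A4. COL4A1 and COL4A2 encode the 2 main chains of type IV collagen, the network of basement membranes. They lie head to head on chromosome 13 (110148963 to 110307202 on the minus strand and 110305812 to 110513209 on the plus strand) and are transcribed away from each other. COL4A1 was read at 172, 177 and 180.1 CPM in SK-N-SH controls and 396, 402 and 382 after knockdown. In SK-N-AS the same gene went from 22.2, 22.9, 22.7 and 24.8 CPM to 7.49, 8.34, 7.199 and 7.41. All knockdown libraries lay above the controls in the first line and below them in the second. Its log2 fold changes were 1.15 ± 0.041 and -1.59 ± 0.046, a difference of 2.74 ± 0.062 (adjusted p = 2.99e-34). COL4A2 was read at 263, 255 and 264 CPM in SK-N-SH controls against 528, 549 and 529 after knockdown. Its SK-N-AS values were 31.1, 32.3, 30.7 and 28.9 CPM in controls against 9.46, 10.6, 11.6 and 11.4 after knockdown. The pair thus moved alike within each line, and for COL4A2 the difference was 2.56 ± 0.062 (adjusted p = 3.41e-33). Their annotated spans overlap by 1391 bases on opposite strands, and reads there cannot be assigned without strand.

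The bases between the start sites of this pair, in RefSeq on GRCh38.p14, are shown because both genes start from them and both turned in opposite directions between the lines. The stretch is 126 bases long, chr13:110307158-110307283, written on the plus strand. Its capitals mark the CCAAT box, a binding sequence of the factor NF-Y, which reads as CCAAT towards COL4A2 and as ATTGG towards COL4A1.
COL4A1-COL4A2: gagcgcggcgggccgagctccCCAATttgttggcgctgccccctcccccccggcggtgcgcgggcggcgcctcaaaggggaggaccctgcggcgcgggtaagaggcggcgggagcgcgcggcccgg
The 250 bases upstream of SLC7A14 and SNX10, which are among the leading genes of the class that went the other way, are shown beside it, each on its own strand. In them the capitals mark the sequence CAGGTG on either strand, an E-box that SNAI and ZEB factors bind. In SNX10 they also mark the AP-1 sequence TGACTCA, which there overlaps the first E-box. The other leading genes of that class, ADCYAP1R1, CUX2, PROKR2 and ARHGEF4, held no CAGGTG on either strand in their promoter windows. These sequences do not set the classes apart: the SLC7A14 window also holds CCAAT at its start site, past the bases shown, CCAAT was found for ADCYAP1R1 and CUX2 as well, and NIPAL4, of the class of COL4A1, holds the E-box. SLC7A14 is at chr3:170586076-170586325 on the minus strand and SNX10 at chr7:26291612-26291861 on the plus strand.
SLC7A14: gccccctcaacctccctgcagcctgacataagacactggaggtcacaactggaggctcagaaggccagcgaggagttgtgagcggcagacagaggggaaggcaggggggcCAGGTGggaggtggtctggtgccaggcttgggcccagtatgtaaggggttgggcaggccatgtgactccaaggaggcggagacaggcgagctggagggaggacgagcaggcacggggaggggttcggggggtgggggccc
SNX10: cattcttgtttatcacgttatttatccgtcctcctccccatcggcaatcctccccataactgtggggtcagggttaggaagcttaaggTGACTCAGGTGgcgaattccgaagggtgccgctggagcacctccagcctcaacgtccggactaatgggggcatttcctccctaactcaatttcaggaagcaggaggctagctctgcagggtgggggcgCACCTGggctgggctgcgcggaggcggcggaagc

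ELN, which encodes elastin, the rubber-like fibre protein, moved in the same directions as the collagen IV pair. Elastin transcripts were read at 121, 103 and 115 CPM in SK-N-SH controls and 282, 283 and 276 after knockdown. SK-N-AS gave 19.8, 16.5, 16.7 and 17.3 CPM in controls and 4.54, 5.07, 4.09 and 5.12 after knockdown. The groups did not overlap in either line, and the responses differed by 3.21 ± 0.084 (adjusted p = 3.54e-27). EYA4, a phosphatase and transcription cofactor of the eyes absent family, was read at 1.55, 1.91 and 1.52 CPM and then 5.48, 7.29 and 4.91 in SK-N-SH, and at 2.76, 3.77, 3.05 and 3.24 CPM and then 1.28, 1.18, 1.17 and 1.14 in SK-N-AS. Its order in the lines was reversed by knockdown: SK-N-AS was the higher line in controls and SK-N-SH after knockdown. The difference of responses was 3.23 ± 0.25 (adjusted p = 7.28e-15). NIPAL4, of a family of magnesium transporters, and SLC16A4, of the monocarboxylate transporter family, were expressed mainly in SK-N-SH. NIPAL4 was read at 8.90, 7.32 and 9.95 CPM in SK-N-SH controls and 25.2, 25.0 and 24.4 after knockdown, against 84 reads over the 4 SK-N-AS controls and 30 over the 4 SK-N-AS knockdown libraries. SLC16A4 was read at 3.10, 3.63 and 4.59 CPM and then 12.8, 10.04 and 12.9 in SK-N-SH, against 81 and 51 reads in SK-N-AS. In SK-N-AS both were under 1 CPM in all 8 libraries, and these falls rest on those few reads. NIPAL4 also overlaps ADAM19, a gene that rose in both lines, on the opposite strand.

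The 6 leading genes that fell in SK-N-SH and rose in SK-N-AS were SLC7A14, ADCYAP1R1, SNX10, CUX2, PROKR2 and ARHGEF4. SLC7A14, a lysosomal member of the cationic amino acid transporter family, was read at 30.9, 35.5 and 30.5 CPM in SK-N-SH controls and 9.51, 8.32 and 9.05 after knockdown. In SK-N-AS it was read at 1.06, 1.12, 0.945 and 0.939 CPM in controls and 5.70, 5.66, 5.63 and 5.71 after knockdown. The lines lay far apart in controls and close together after knockdown. The log2 fold changes were -1.85 ± 0.10 and 2.50 ± 0.10, a difference of -4.35 ± 0.15 (adjusted p = 4.11e-28). SNX10, a sorting nexin of endosomes, was the reverse in level: it was read at 0.816, 1.19 and 0.803 CPM and then 0.330, 0.412 and 0.194 in SK-N-SH, and at 4.79, 6.87, 6.33 and 5.76 CPM and then 17.9, 18.2, 18.6 and 19.6 in SK-N-AS. Here the gap between the lines widened, and the SK-N-SH side rests on 46 control and 14 knockdown reads. The difference was -3.23 ± 0.43 (adjusted p = 3.88e-08).

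The other 4 leading genes of this class were expressed mainly in SK-N-SH. ADCYAP1R1, the receptor of the neuropeptide PACAP, was read at 53.1, 57.8 and 56.0 CPM in SK-N-SH controls and 13.3, 15.1 and 13.9 after knockdown, with 33 control and 134 knockdown reads in SK-N-AS. CUX2, a homeobox factor of upper-layer cortical neurons, was read at 34.8, 36.9 and 36.4 CPM and then 5.48, 4.88 and 7.56 in SK-N-SH, with 24 and 82 reads in SK-N-AS. ARHGEF4, a guanine nucleotide exchange factor for small GTPases, was read at 12.3, 12.1 and 12.6 CPM and then 4.36, 5.36 and 4.59 in SK-N-SH, and at 0.460, 0.462, 0.339 and 0.550 CPM and then 1.12, 1.33, 1.10 and 1.49 in SK-N-AS. All 4 fell clearly in the line that expressed them. PROKR2, a prokineticin receptor, was read at 4.82, 6.27 and 6.602 CPM and then 2.05, 2.199 and 2.59 in SK-N-SH, and its SK-N-AS rise went from 4 to 92 reads. The differences ran from -5.39 (PROKR2, adjusted p = 1.14e-09) to -2.87 (ARHGEF4, adjusted p = 1.34e-13) on the log2 scale.

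**Figure D2:**
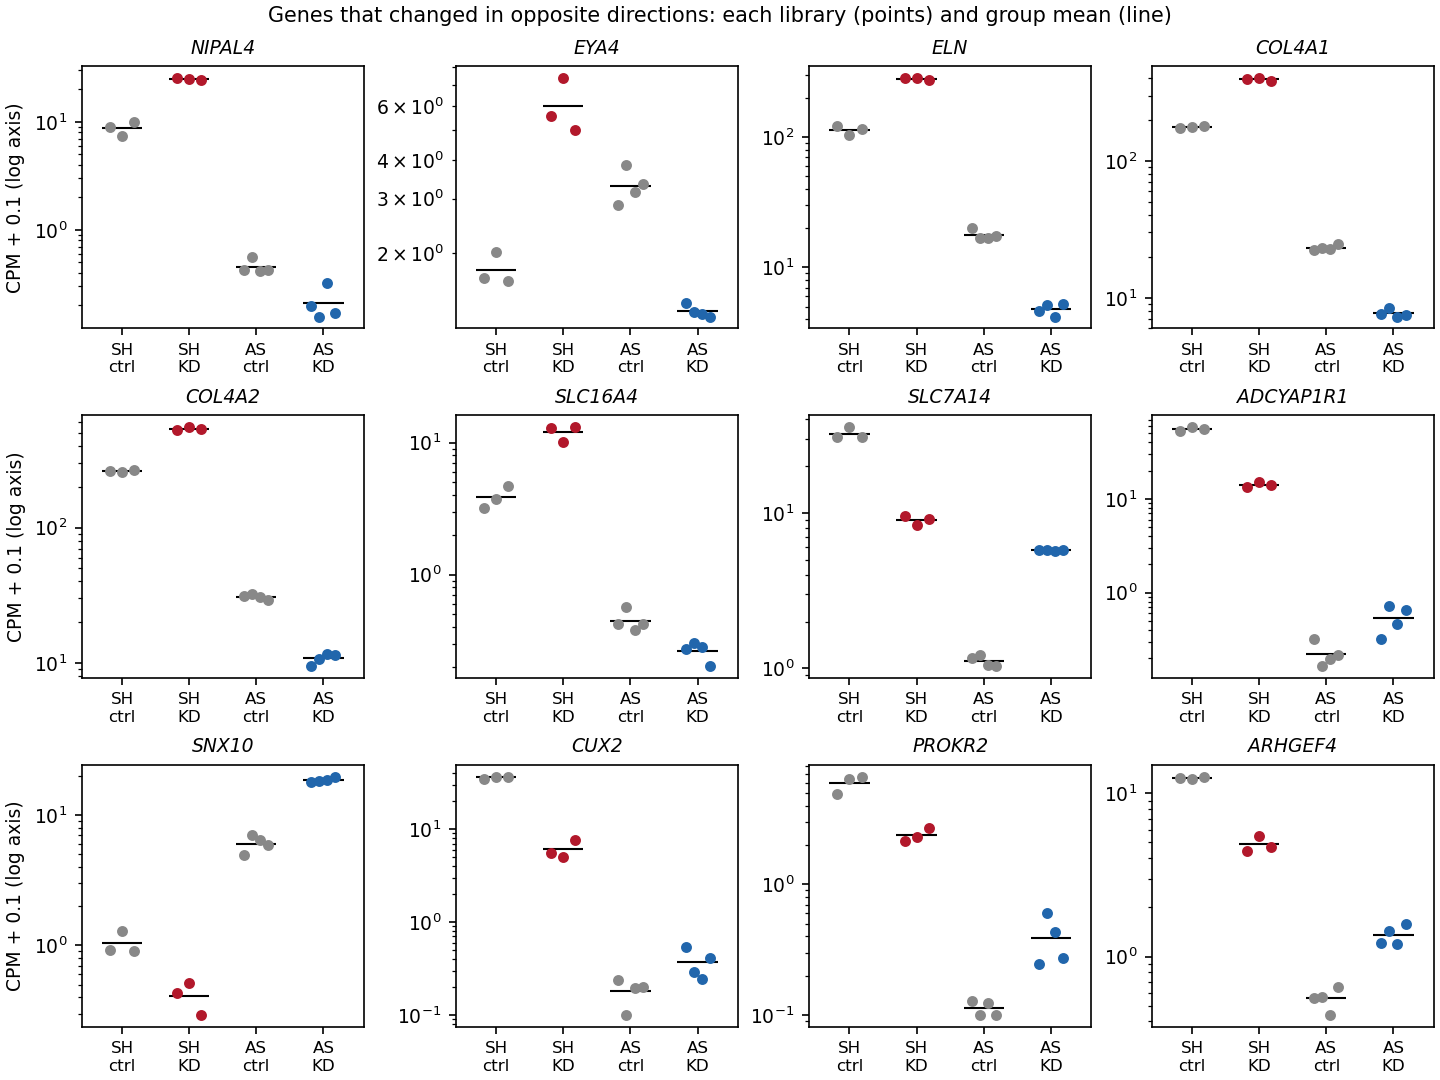
Each panel is 1 of the 12 leading genes with opposite change, with CPM + 0.1 on a log y axis and the 4 groups on the x axis (SH and AS for the lines, ctrl for sgGal4, KD for sgDIORA1); points are libraries and lines are group means. In every panel the knockdown libraries lie on one side of the controls in SK-N-SH and on the other side in SK-N-AS.

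CEMIP led the shared rises by the smaller of its responses. CEMIP, which binds and breaks down hyaluronan, was read at 23.8, 22.4 and 19.4 CPM in SK-N-SH controls and 124, 129 and 122 after knockdown. Its SK-N-AS values were 18.1, 16.1, 17.9 and 17.9 CPM in controls and 88.0, 95.6, 99.3 and 96.0 after knockdown. The rise was of similar size in the lines, with log2 fold changes of 2.54 ± 0.063 and 2.42 ± 0.045 and a difference of 0.11 ± 0.079 (adjusted p = 0.31). ITGB3, the integrin beta 3 chain, was read at 7.02, 6.27 and 7.09 CPM and then 23.2, 21.2 and 21.7 in SK-N-SH, and at 7.90, 7.002, 8.09 and 6.17 CPM and then 22.1, 21.4, 22.9 and 22.5 in SK-N-AS. Both its control and its knockdown levels were alike in the lines, and the difference of 0.10 ± 0.13 did not pass (adjusted p = 0.649). SULT1B1, a cytosolic sulfotransferase, was read at 70.4, 70.2 and 71.0 CPM and then 219.8, 221 and 208 in SK-N-SH, and at 5.59, 5.28, 6.23 and 5.70 CPM and then 24.8, 22.1, 26.1 and 25.0 in SK-N-AS. It rose more in SK-N-AS, by a difference of -0.46 ± 0.076 (adjusted p = 2.53e-06). SUCNR1, the succinate receptor, rose more in SK-N-SH (2.81 ± 0.095 against 1.58 ± 0.20, adjusted p = 9.06e-05), from 76 to 274 reads in SK-N-AS. NPR3, the clearance receptor of natriuretic peptides, stood at 103 CPM in SK-N-SH controls and 354 after knockdown, but its SK-N-AS call rests on 4 and 18 reads. IGFN1, an immunoglobulin and fibronectin domain protein, was the reverse, with 8 and 22 reads in SK-N-SH and a rise from 22.0 to 56.9 CPM in SK-N-AS.

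Shared falls were led by TEAD3 and LAMP5, ahead of FAM167A itself by the smaller of the responses. TEAD3, one of the 4 TEAD factors through which YAP and TAZ bind DNA, was read at 15.9, 16.4 and 15.1 CPM in SK-N-SH controls and 0.0661, 0 and 0.0646 after knockdown, where 2 reads were left over 3 libraries. In SK-N-AS it was read at 30.7, 24.7, 29.2 and 28.8 CPM in controls and 1.30, 1.34, 0.804 and 1.66 after knockdown. TEAD3 was close to lost in SK-N-SH and low in SK-N-AS, an order like that of FAM167A. The log2 fold changes were -8.39 and -4.46 ± 0.096 (difference tested at an adjusted p = 1.19e-05). LAMP5, a lysosome-associated membrane protein of neurons, was read at 11.5, 10.1 and 10.7 CPM and then 0.925, 0.962 and 0.905 in SK-N-SH, and at 53.05, 53.8, 55.9 and 52.8 CPM and then 0.663, 0.576, 0.512 and 0.519 in SK-N-AS. This fall was the larger in SK-N-AS, by a difference of 3.02 ± 0.29 (adjusted p = 8.11e-12). The SK-N-AS controls were also above the SK-N-SH CRISPRi controls, but not above the SK-N-SH siRNA controls, which averaged 78.6 CPM by library totals. VSTM4, an immunoglobulin domain membrane protein, fell by a like amount in both (-2.54 ± 0.23 and -1.93 ± 0.11, difference -0.61 ± 0.27, adjusted p = 0.0877). The difference for VSTM4 passed without SK-N-AS control replicate 2 (adjusted p = 0.0445) and with library totals as the only scaling (adjusted p = 0.0290). SMPD3, the neutral sphingomyelinase 2, and MGAT4A, an enzyme of N-glycan branching, were low in SK-N-AS, at 58 and 25 reads over the controls.

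SK-N-SH-only rises at 1 CPM or more in the controls of both lines included VCAM1, MMP11, YY2 and ST8SIA4. VCAM1, an adhesion molecule for leukocytes, was read at 2.61, 2.77 and 3.52 CPM in SK-N-SH controls and 11.6, 12.8 and 13.3 after knockdown. In SK-N-AS it was read at 11.6, 11.0, 12.7 and 12.3 CPM and then 11.7, 12.5, 13.6 and 11.9. Knockdown brought the SK-N-SH level to that of SK-N-AS, whose groups overlapped. The difference of responses was 1.98 ± 0.15 (adjusted p = 7.52e-15). MMP11, the metalloproteinase stromelysin-3, was read at 46.6, 44.2 and 50.1 CPM and then 153, 163 and 159 in SK-N-SH, against 7.75, 7.56, 7.18 and 7.54 CPM and then 7.12, 7.26, 7.35 and 7.61 in SK-N-AS. Here the line with the higher controls was the one that rose, and the difference was 1.78 ± 0.079 (adjusted p = 1e-23). YY2, a zinc finger factor related to YY1, was low in controls, at 2.25 CPM in SK-N-SH and 1.42 CPM in SK-N-AS. It differed by 2.09 ± 0.25 (adjusted p = 1.25e-09), but it lies inside MBTPS2 on the same strand, a gene that rose in both lines. ST8SIA4, which adds polysialic acid to the adhesion molecule NCAM, differed by 1.81 ± 0.24 (adjusted p = 3.73e-08) and stood at 1.12 to 1.63 CPM in SK-N-SH controls.

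Among SK-N-SH-only rises under 1 CPM in SK-N-AS controls, NECTIN3-AS1, an RNA antisense to NECTIN3, was read at 0.326, 0.660 and 0.535 CPM in SK-N-SH controls and 14.7, 15.9 and 13.4 after knockdown. SK-N-AS held 0.284, 0.363, 0.266 and 0.356 CPM in controls and 0.246, 0.307, 0.1096 and 0.173 after knockdown, and these groups overlapped. The difference was 5.27 ± 0.41 (adjusted p = 6.82e-15), and the sense gene NECTIN3 rose slightly in SK-N-SH with no called difference. CD55, which protects cells from complement, went from 18 to 277 reads in SK-N-SH and from 36 to 74 in SK-N-AS, where the fold change did not pass. ACTG2, the actin of visceral smooth muscle, went from 140 to 398 reads in SK-N-SH, with 8 and 2 reads in SK-N-AS. Its call was lost without SK-N-AS control replicate 1 (adjusted p = 0.300).

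The leading SK-N-SH-only falls at 1 CPM or more in the controls of both lines were DCX, NMU, MRAP2 and MAOA, by their difference. DCX, the microtubule protein doublecortin of migrating neurons, was read at 43.1, 52.6 and 42.5 CPM in SK-N-SH controls and 4.43, 5.36 and 5.62 after knockdown. In SK-N-AS it was read at 3.17, 3.30, 3.75 and 2.40 CPM and then 3.02, 3.80, 4.13 and 4.26. The fall in SK-N-SH ended near the level that SK-N-AS held throughout. The SK-N-SH siRNA controls averaged 393 CPM by library totals, far above the CRISPRi controls, so the size of the gap between the lines depends on the control set. The difference of responses was -3.41 ± 0.18 (adjusted p = 1.33e-17). MAOA, the mitochondrial monoamine oxidase A that breaks down noradrenaline, started level in the lines. It was read at 26.8, 25.5 and 26.6 CPM and then 4.36, 7.01 and 4.65 in SK-N-SH, against 25.4, 21.3, 23.1 and 25.8 CPM and then 24.5, 25.6, 27.6 and 27.6 in SK-N-AS. SK-N-SH fell and the SK-N-AS groups overlapped, with a difference of -2.43 ± 0.13 (adjusted p = 1.81e-19). NMU, the peptide neuromedin U, and MRAP2, a melanocortin receptor accessory protein, differed by -3.10 ± 0.33 (adjusted p = 9.91e-11) and -2.50 ± 0.20 (adjusted p = 1.91e-14). PEG3 (an imprinted zinc finger gene), NLGN4X (a neuroligin) and CLSTN2 (a calsyntenin of synapses) fell in SK-N-SH from 15.3, 12.3 and 46.8 CPM to 2.90, 3.30 and 13.3 CPM. Each had 0 reads in all SK-N-AS controls and 4 over the knockdown libraries. Their called differences rest on those few reads, and each was lost without 1 or 2 of the SK-N-AS knockdown replicates 1, 2 and 3.

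Chosen the same way, the leading SK-N-AS-only rises were ZNF667-AS1 and CXCL12, the chemokine that acts on CXCR4. CXCL12 was read at 9.70, 9.51, 9.94 and 10.5 CPM in SK-N-AS controls and 37.9, 36.8, 37.0 and 37.4 after knockdown. In SK-N-SH it was read at 28.6, 25.8 and 28.9 CPM and then 29.5, 29.3 and 26.7. The SK-N-AS level went from under that of the SK-N-SH CRISPRi libraries to above it, while the SK-N-SH groups overlapped. The SK-N-SH siRNA controls averaged 1.15 CPM by library totals, under the SK-N-AS controls, so this order depends on the control set. The difference was -1.87 ± 0.088 (adjusted p = 8.71e-23). IQGAP2, a scaffold of the actin cytoskeleton, was read at 7.52, 6.61, 7.82 and 6.28 CPM and then 17.7, 18.8, 20.4 and 18.8 in SK-N-AS, against 8.65, 10.4 and 8.39 CPM and then 7.003, 7.70 and 8.99 in SK-N-SH. Its control levels were alike in the lines. BMPER, a secreted modulator of BMP signals, differed by -1.78 ± 0.30 (adjusted p = 4.35e-06). ZNF667-AS1 differed by -1.89 ± 0.16 (adjusted p = 2.41e-13), and ZNF667, which overlaps it on the other strand, was also an SK-N-AS-only rise. AIM2, a sensor of cytosolic DNA, rose in SK-N-AS from 1.14, 1.12, 0.993 and 0.680 CPM to 5.45, 4.50, 5.79 and 4.603, with 11 and 5 reads in SK-N-SH (difference -3.35 ± 0.79, adjusted p = 0.000664). HHIPL2 and CLDN11, a claudin of tight junctions, also rose in SK-N-AS, but their called differences were lost without SK-N-SH control replicate 1 (HHIPL2, adjusted p = 0.0546) or 3 (CLDN11, adjusted p = 0.101).

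SK-N-AS-only falls were led by VILL, a villin-like protein that binds actin. VILL was read at 1.21, 0.859, 1.13 and 1.52 CPM in SK-N-AS controls and 0.0982, 0.0768, 0.183 and 0.0346 after knockdown. In SK-N-SH it was read at 9.96, 6.79 and 7.405 CPM and then 11.1, 8.59 and 10.02. It was close to lost in SK-N-AS and stayed within overlapping ranges in SK-N-SH, with a difference of 3.96 ± 0.33 (adjusted p = 9.66e-14). EFNB2, the ligand ephrin-B2, was read at 11.4, 16.0, 12.1 and 12.6 CPM and then 6.51, 5.65, 5.15 and 5.36 in SK-N-AS, against 65.4, 66.0 and 60.9 CPM and then 62.8, 65.3 and 65.9 in SK-N-SH. The line with the lower level was the one that fell (difference 1.17 ± 0.11, adjusted p = 3.6e-11). BAALC, a brain and leukaemia gene, differed by 2.12 ± 0.31 (adjusted p = 2.13e-07). HES1, a target of Notch, differed by 1.15 ± 0.30 (adjusted p = 0.0121), a call that was lost without SK-N-SH knockdown replicate 3 (adjusted p = 0.0535) and with the replicate number as a block (adjusted p = 0.0753). ZNF467, a zinc finger gene, fell from 41.5 to 30.2 CPM in SK-N-AS with 38 and 54 reads in SK-N-SH. CORIN, the protease that activates atrial natriuretic peptide, fell from 4256 to 2516 reads in SK-N-AS. Its difference was lost without SK-N-SH control replicate 1 (adjusted p = 0.0516) or knockdown replicate 3 (adjusted p = 0.112). DNAJA4, a co-chaperone, had a difference close to the threshold (adjusted p = 0.0449). It was lost when any 1 of SK-N-SH control replicates 2 and 3, SK-N-SH knockdown replicate 3 and SK-N-AS control replicates 2 and 3 was left out, with adjusted p-values of 0.0507 to 0.553.

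The gene lists below are described by counts and medians, beside medians of 0.00 in each line over all genes tested and the shares of called genes given above. Most adrenergic identity genes fell in both lines, with the lower median in SK-N-SH. Of 30 tested, 27 fell and 1 rose in SK-N-SH (median log2 fold change -1.64), 20 fell and 2 rose in SK-N-AS (median -0.41), and the same 20 were the ones fallen in both. The SK-N-SH response was the lower for 22. RET, the receptor of GDNF family ligands, was read at 352, 345 and 345 CPM in SK-N-SH controls and 71.6, 78.1 and 76.5 after knockdown, and at 981, 976, 956 and 979 CPM and then 547, 542, 537 and 532 in SK-N-AS. It fell in every library of both lines, though SK-N-AS started higher and the drop there was smaller (difference -1.35 ± 0.046, adjusted p = 6.74e-28). GATA2, a core transcription factor of this identity, was read at 388, 389 and 374 CPM and then 92.1, 91.0 and 93.2 in SK-N-SH, and at 519.7, 483, 484 and 498 CPM and then 377, 367, 343 and 357 in SK-N-AS. The groups did not overlap in either line (difference -1.60 ± 0.050, adjusted p = 3.12e-29). HAND1, HAND2, GATA3 and DDC were among the genes that fell in SK-N-SH alone. HAND2 stood at 459.6 and 241 CPM in SK-N-SH, and at 609 and 607 CPM in SK-N-AS. TBX2 rose in both lines, and ALK fell in SK-N-SH from 91.6 to 24.1 CPM while SK-N-AS held 14 reads over the controls and 46 over the knockdown libraries.

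Of 28 mesenchymal identity genes tested, 19 rose and 4 fell in SK-N-SH (median 0.64), and 19 rose and 6 fell in SK-N-AS (median 0.31), with 14 risen in both. PRRX1, a homeobox factor of this identity, was read at 373, 367 and 382 CPM in SK-N-SH controls and 869, 899.7 and 854 after knockdown, and at 410.0, 409, 417 and 408 CPM and then 478, 483, 486 and 488 in SK-N-AS. It rose in both and more in SK-N-SH (difference 0.99 ± 0.042, adjusted p = 1.98e-24). FN1 (fibronectin), NOTCH3 and TBX18 rose in SK-N-SH and fell in SK-N-AS, while FOSL1, ZEB2 and ID1 did the reverse. FN1 was read at 2693, 2289 and 2412 CPM and then 5675, 5968 and 5414 in SK-N-SH, and at 115, 107, 115 and 113 CPM and then 103, 105, 103 and 101 in SK-N-AS. Its fall in SK-N-AS was small beside the rise in SK-N-SH, where controls were also far higher (difference 1.33 ± 0.056, adjusted p = 4.36e-20). TWIST1 fell in both lines, TWIST2 rose in SK-N-SH alone and SNAI2 rose in SK-N-AS alone.

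Matrix genes rose more often than they fell in each line. Of 21 collagens tested, 13 rose and 0 fell in SK-N-SH (median 1.04), and 10 rose and 4 fell in SK-N-AS (median 0.34). COL1A1, COL4A1 and COL4A2 had opposite change, and 7 collagens rose in both. COL3A1, a fibrillar collagen, rose from 1402, 1418 and 1513 CPM to 4116, 4234 and 4176 in SK-N-SH, and from 1566, 1502, 1561 and 1546 CPM to 2143, 2175, 2157 and 2109.7 in SK-N-AS. Its controls were level in the lines, and the rise was larger in SK-N-SH (difference 1.06 ± 0.042, adjusted p = 1.27e-25). Of 42 matrix glycoproteins and proteases, 36 rose and 5 fell in SK-N-SH (median 0.75), and 24 rose and 9 fell in SK-N-AS (median 0.22). The 21 that rose in both included SPARC, LUM, DCN and LOX, and the 8 that rose in SK-N-SH and fell in SK-N-AS were FN1, FBLN1, ELN, THBS2, TNC, BGN, MMP14 and PLAT. BGN, the proteoglycan biglycan, was read at 6.28, 6.66 and 6.29 CPM and then 51.9, 48.3 and 51.1 in SK-N-SH, and at 380.4, 358, 354 and 366 CPM and then 310.2, 304, 295 and 306 in SK-N-AS. The gap between the lines narrowed from both sides (difference 3.24 ± 0.077, adjusted p = 1.46e-33). PLAT, the tissue plasminogen activator, differed by 1.91 ± 0.050 (adjusted p = 1.56e-32), though its SK-N-AS groups overlapped. Of the 11 fibroblast and smooth muscle markers, 9 were tested. Their summed level went from 998 to 1100 CPM in SK-N-SH controls to 1765 to 1835 CPM after knockdown. In SK-N-AS it went from 1306 to 1351 CPM to 1485 to 1552 CPM. Of the 9 tested, 6 rose and 0 fell in SK-N-SH (median 0.68), and 4 rose and 3 fell in SK-N-AS (median -0.05). PDGFRB, THY1 and FAP had opposite change. The part of these markers in the results was not tested.

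Actomyosin genes rose mostly in SK-N-SH. Of 35 tested, 31 rose and 2 fell there (median 0.56), against 13 risen and 6 fallen in SK-N-AS (median 0.07), and the SK-N-SH response was the higher for 25. ACTB, ACTG1, RHOA, ROCK1, CFL1 and FLNA were among the 13 SK-N-SH-only rises, and MYH10, CNN2, LIMK1, PPP1R12B and TAGLN2 rose in SK-N-SH and fell in SK-N-AS. MYH10, the heavy chain of non-muscle myosin IIB, was read at 337, 345 and 342 CPM and then 558, 577 and 543 in SK-N-SH, and at 173, 171, 172 and 170.2 CPM and then 131, 134, 135 and 133 in SK-N-AS. The groups did not overlap in either line (difference 1.08 ± 0.044, adjusted p = 4.29e-25). CALD1, caldesmon, rose in both lines and more in SK-N-SH (difference 0.82 ± 0.041, adjusted p = 1.03e-21). Of 30 integrin and focal adhesion genes, 23 rose and 4 fell in SK-N-SH (median 0.68), and 16 rose and 3 fell in SK-N-AS (median 0.15). ITGA9, the integrin alpha 9 chain, went against its list in SK-N-SH. It was read at 39.4, 42.0 and 37.0 CPM and then 6.47, 8.18 and 6.34 in SK-N-SH, and at 8.67, 7.60, 8.25 and 8.58 CPM and then 15.9, 17.2, 18.2 and 16.3 in SK-N-AS. The line with the higher level was not the same after knockdown as before (difference -3.51 ± 0.12, adjusted p = 4.29e-28). ITGA1 and ITGB8 also fell in SK-N-SH and rose in SK-N-AS. ITGB1, the common beta 1 chain, rose in both, with a difference of 0.67 ± 0.041 (adjusted p = 2.28e-18).

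Neurite and neuronal genes separated the lines most by median. Of 32 tested, 26 fell and 5 rose in SK-N-SH (median -1.71), and 9 fell and 12 rose in SK-N-AS (median 0.03). The 9 that fell in SK-N-SH and rose in SK-N-AS were NEFL, NEFM, NEFH, INA, NRCAM, L1CAM, NCAM1, CNTN1 and RTN1, of which the first 4 are neurofilament or related intermediate filament chains and NRCAM, L1CAM, NCAM1 and CNTN1 are neuronal adhesion molecules. NEFL was read at 47.2, 54.0 and 50.6 CPM and then 12.6, 14.1 and 16.2 in SK-N-SH, and at 33.7, 33.5, 31.4 and 34.1 CPM and then 82.2, 80.4, 82.9 and 88.2 in SK-N-AS. NEFM was read at 91.9, 112 and 94.5 CPM and then 24.1, 23.1 and 27.7 in SK-N-SH, and at 20.2, 19.7, 19.8 and 18.8 CPM and then 42.2, 43.6, 41.4 and 40.7 in SK-N-AS. The 2 neurofilament chains moved alike in each line and ended higher in SK-N-AS, though SK-N-SH was higher in controls. The differences were -3.16 ± 0.086 (NEFL, adjusted p = 8.75e-32) and -3.09 ± 0.085 (NEFM, adjusted p = 2.36e-31). DPYSL3, a collapsin response mediator, rose in SK-N-SH, where most of its list fell, and fell in SK-N-AS (difference 1.75 ± 0.045, adjusted p = 1.07e-32). STMN1, STMN3, GAP43, DPYSL5, CRMP1, ELAVL3, SCG3 and SYP fell in both lines. Of 35 axon guidance genes, 17 rose and 10 fell in SK-N-SH, and 9 rose and 13 fell in SK-N-AS. The 7 that rose in SK-N-SH and fell in SK-N-AS were the ligands SEMA3A, SEMA3F and SLIT3 and the receptors PLXND1, NRP2, EPHB2 and UNC5C. SEMA3F differed by 2.34 ± 0.12 (adjusted p = 3.97e-20) and the receptor PLXNA4, which went the other way, by -1.94 ± 0.12 (adjusted p = 1.36e-18).

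**Figure D3:**
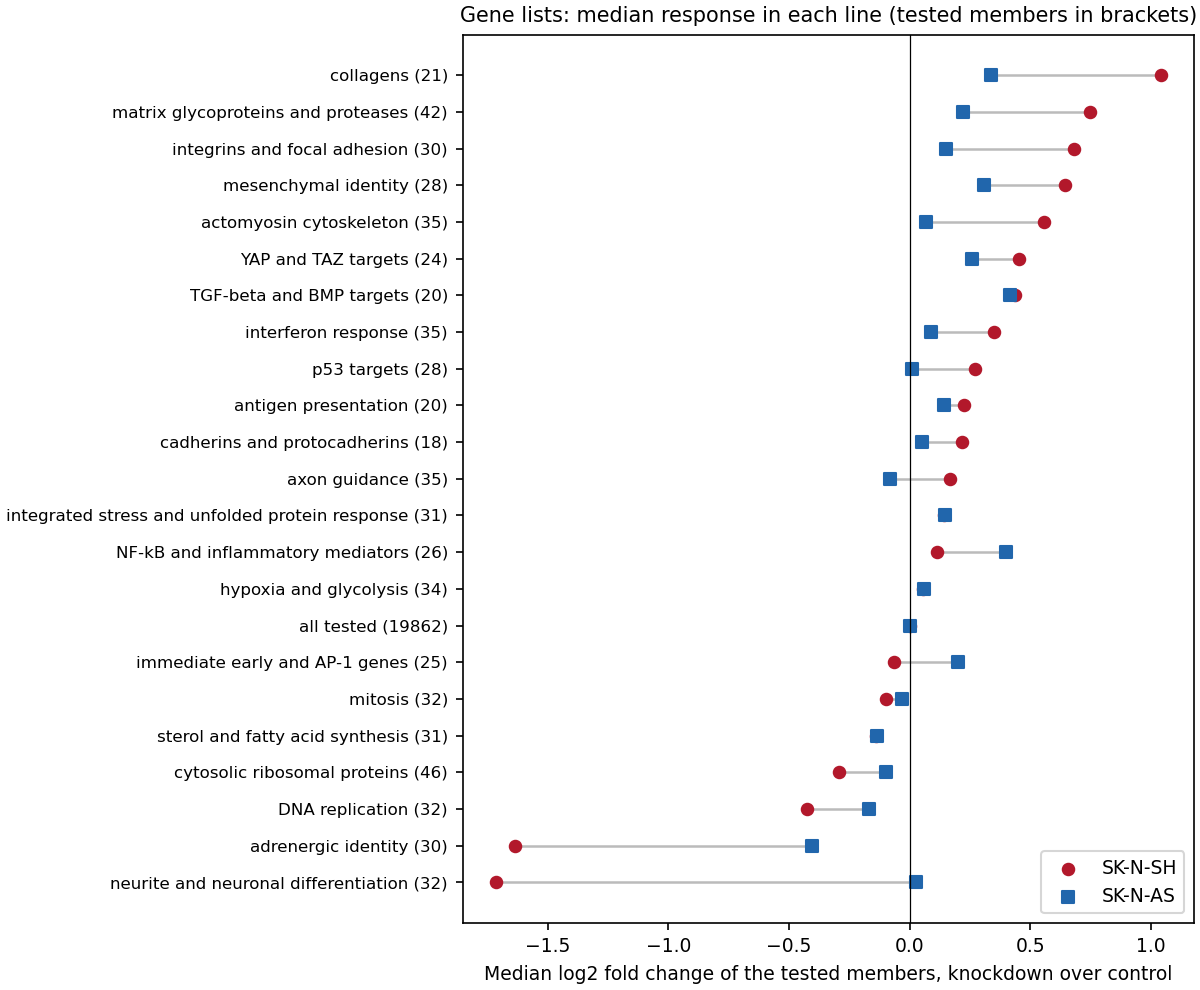
For 22 gene lists and all tested genes, the x axis is the median log2 fold change of the tested members, knockdown over control, in SK-N-SH (circles) and SK-N-AS (squares). The adrenergic list (-1.64 and -0.41) and the neurite list (-1.71 and 0.03) lie furthest apart, and the NF-kB list has the higher median in SK-N-AS (0.40 against 0.11). In the NF-kB list the SK-N-SH response was called the higher for 6 genes and the lower for 7.

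Of 26 NF-kB and inflammatory genes tested, 8 rose in both lines. In all, 12 rose and 0 fell in SK-N-SH (median 0.11), and 19 rose and 0 fell in SK-N-AS (median 0.40). The test of the difference gave a higher SK-N-SH response for 6 and a lower one for 7, with a median difference of -0.18. These genes had a median control level of 5.62 CPM in SK-N-SH and 23.97 CPM in SK-N-AS. In SK-N-SH controls 7 were under 1 CPM, against 1 in SK-N-AS controls. The part of these levels in the counts and medians was not tested. With library totals as the only scaling, 11 rose and 3 fell in SK-N-SH. CXCL12, LIF, TNFAIP2, NFKBIA, BIRC3 and ICAM1 were SK-N-AS-only rises, and CSF1, VCAM1 and BCL3 SK-N-SH-only rises. ICAM1, an adhesion molecule of leukocytes, stood at 94.8 and 144 CPM in SK-N-AS and at 30.4 and 29.3 CPM in SK-N-SH. IL1B, a cytokine that activates NF-kB, stood at 22.2 and 95.2 CPM in SK-N-AS and had no read in SK-N-SH, and its difference of responses was not called. CCL2, a chemokine for monocytes, rose in both and more in SK-N-SH (difference 1.08 ± 0.078, adjusted p = 5.82e-16), where controls held 13.96, 12.5 and 12.3 CPM against 407, 429, 386 and 401 CPM in SK-N-AS. Of 25 immediate early and AP-1 genes tested, 7 rose and 9 fell in SK-N-SH, and 15 rose and 4 fell in SK-N-AS. By the test of the difference, the SK-N-SH response was the higher for 5 and the lower for 7, and the median difference was -0.07. FOS, FOSL1, JUNB, NR4A3 and DUSP1 fell in SK-N-SH and rose in SK-N-AS. Among interferon response genes, OAS1, OAS3, MX1 and IFI27 fell in SK-N-SH alone, while 19 of 35 tested rose there and 12 rose in SK-N-AS. OAS3, which makes the activator of RNase L, was read at 44.5, 49.6 and 48.2 CPM and then 9.51, 12.4 and 13.4 in SK-N-SH, against 127, 123, 126 and 125 CPM and then 124, 126, 124 and 124 in SK-N-AS (difference -2.003 ± 0.082, adjusted p = 5.86e-25). IFI16, a DNA sensor of the same family as AIM2, rose in both lines and more in SK-N-AS (difference -0.75 ± 0.055, adjusted p = 8.44e-16).

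Among YAP and TAZ targets, 19 of 24 rose and 2 fell in SK-N-SH (median 0.45), and 12 rose and 4 fell in SK-N-AS (median 0.26). CCN1 and CCN2, the best known of them, rose in both lines. CCDC80 and TEAD2 rose in SK-N-SH and fell in SK-N-AS, while IGFBP3, an IGF-binding protein, did the reverse (difference -1.75 ± 0.080, adjusted p = 1.57e-21). Among TGF-beta and BMP targets, 14 of 20 rose and 4 fell in SK-N-SH, and 13 rose and 1 fell in SK-N-AS. The 4 that fell in SK-N-SH and rose in SK-N-AS were SMAD6, ID1, ID2 and BAMBI, which are targets or inhibitors of BMP signalling. SMAD6, an inhibitory SMAD, was read at 28.6, 24.01 and 25.5 CPM and then 17.8, 16.6 and 17.1 in SK-N-SH, and at 58.1, 54.0, 55.7 and 61.7 CPM and then 131, 126, 117 and 121 in SK-N-AS. The groups did not overlap in either line (difference -1.70 ± 0.089, adjusted p = 5.44e-21). Of 18 cadherins, 8 rose and 3 fell in SK-N-SH, and 4 rose and 4 fell in SK-N-AS. CDH11, a mesenchymal cadherin, rose in both and CDH2, N-cadherin, in SK-N-SH alone, with differences of 1.32 ± 0.047 (adjusted p = 3.74e-27) and 0.98 ± 0.044 (adjusted p = 1.76e-23).

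Of 20 antigen presentation genes, 10 rose and 1 fell in SK-N-SH, 13 rose and 0 fell in SK-N-AS, and 8 rose in both. HLA-E rose in both, and its called difference was lost with library totals as the only scaling (adjusted p = 0.0955). Of 28 p53 targets, 19 rose and 4 fell in SK-N-SH, and 9 rose and 7 fell in SK-N-AS. CDKN1A, the cell cycle inhibitor p21, rose in both, and PLK2, a stress-induced kinase, rose in SK-N-SH and fell in SK-N-AS (difference 1.11 ± 0.063, adjusted p = 1.02e-19). Of 31 genes of the integrated stress and unfolded protein responses, 13 rose and 5 fell in SK-N-SH, and 16 rose and 4 fell in SK-N-AS. SLC7A5, a transporter of large neutral amino acids, rose in SK-N-AS alone and PSAT1, of serine synthesis, fell there alone, with differences of -0.76 ± 0.070 (adjusted p = 1.51e-12) and 0.55 ± 0.063 (adjusted p = 8.51e-10). The median difference of responses was above 0 for the YAP and TAZ, interferon, antigen presentation and p53 lists (0.12, 0.13, 0.08 and 0.13 on the log2 scale) and below 0 for each of them with library totals as the only scaling (-0.02, -0.01, -0.06 and -0.01).

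DNA replication and cytosolic ribosomal protein genes fell in each line wherever they were called. Of 32 DNA replication genes, 31 fell in SK-N-SH (median -0.43) and 25 in SK-N-AS (median -0.17), and 0 rose in either. The fall was deeper in SK-N-SH for 28. MCM3, a subunit of the replicative helicase, was read at 274, 295 and 289 CPM and then 182, 175 and 178 in SK-N-SH, and at 246, 240.3, 246 and 238 CPM and then 218, 216, 223 and 211 in SK-N-AS. Neither pair of groups overlapped, and the difference was -0.52 ± 0.047 (adjusted p = 8.12e-13). All 46 cytosolic ribosomal protein genes tested fell in SK-N-SH (median -0.29), and 32 fell and 0 rose in SK-N-AS (median -0.10). RPS7, of the small ribosomal subunit, differed by -0.51 ± 0.041 (adjusted p = 2.94e-14). Of 32 mitosis genes, 14 fell and 2 rose in SK-N-SH, and 4 fell and 1 rose in SK-N-AS, with 3 fallen in both. The share of mitosis genes that fell in SK-N-AS was near the 14% of all genes tested that fell there. With library totals as the only scaling, 25 mitosis genes fell and 0 rose in SK-N-SH. Of 31 sterol and fatty acid synthesis genes, 15 fell and 4 rose in SK-N-SH, 17 fell and 1 rose in SK-N-AS, and 10 fell in both. SREBF2, the factor that activates the sterol synthesis genes, fell more in SK-N-SH (difference -0.58 ± 0.058, adjusted p = 1.4e-11). Hypoxia and glycolysis genes had like medians in the lines (0.06 in each). Of 34 tested, 12 rose and 8 fell in SK-N-SH, 12 rose and 4 fell in SK-N-AS, and 7 rose in both. Only VEGFA, the endothelial growth factor, and EGLN3, a prolyl hydroxylase, fell in SK-N-SH and rose in SK-N-AS. Their differences were -0.76 ± 0.057 (adjusted p = 1.41e-15) and -3.35 ± 0.42 (adjusted p = 8.94e-09), where SK-N-SH held 46 control and 8 knockdown reads of EGLN3.

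The control level of a gene in each line was then set beside its response class. These levels come from the same control libraries as the responses, so a control read low by chance makes a rise look larger, and the shares below are a description with no test. At least 1 CPM in both sets of controls was found for 92.4% of the shared rises and 94.6% of the shared falls. It was found for 63.2% of all genes tested, which include 4565 under 1 CPM in both. A call in both lines needs reads in both, so high shares are built into the shared classes. They do not set these classes apart either. The share was 94.1% for genes that rose in SK-N-SH and fell in SK-N-AS and 84.3% for the reverse class. Line-only classes ran from 71.7% (SK-N-AS-only rises) to 91.95% (SK-N-SH-only rises). Of SK-N-SH-only falls, 15.2% had at least 1 CPM in SK-N-SH controls alone, against 8.89% of all genes tested and 3.17% of SK-N-SH-only rises. SK-N-SH controls were at least 2-fold the higher for 34.4% of the genes that fell in SK-N-SH and rose in SK-N-AS and for 26.9% of SK-N-SH-only falls, against 16.2% of all genes. The share was 12.7% for SK-N-SH-only rises. With the 5 SK-N-SH siRNA control libraries, which enter no response here, as the SK-N-SH level, these shares were 39.2%, 31.2%, 19.4% and 11.9%. SK-N-AS controls were at least 2-fold the higher for 19.9% and 18.5% of the 2 opposite classes, against 9.87% of all genes. Genes of the class that fell in SK-N-SH and rose in SK-N-AS had medians of 19.3 CPM in SK-N-SH controls and 15.2 CPM in SK-N-AS controls, and of 10.2 and 19.9 CPM after knockdown. For the reverse class the medians were 45.1 and 51.6 CPM in controls, and 59.3 and 43.9 CPM after knockdown.

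**Figure D4:**
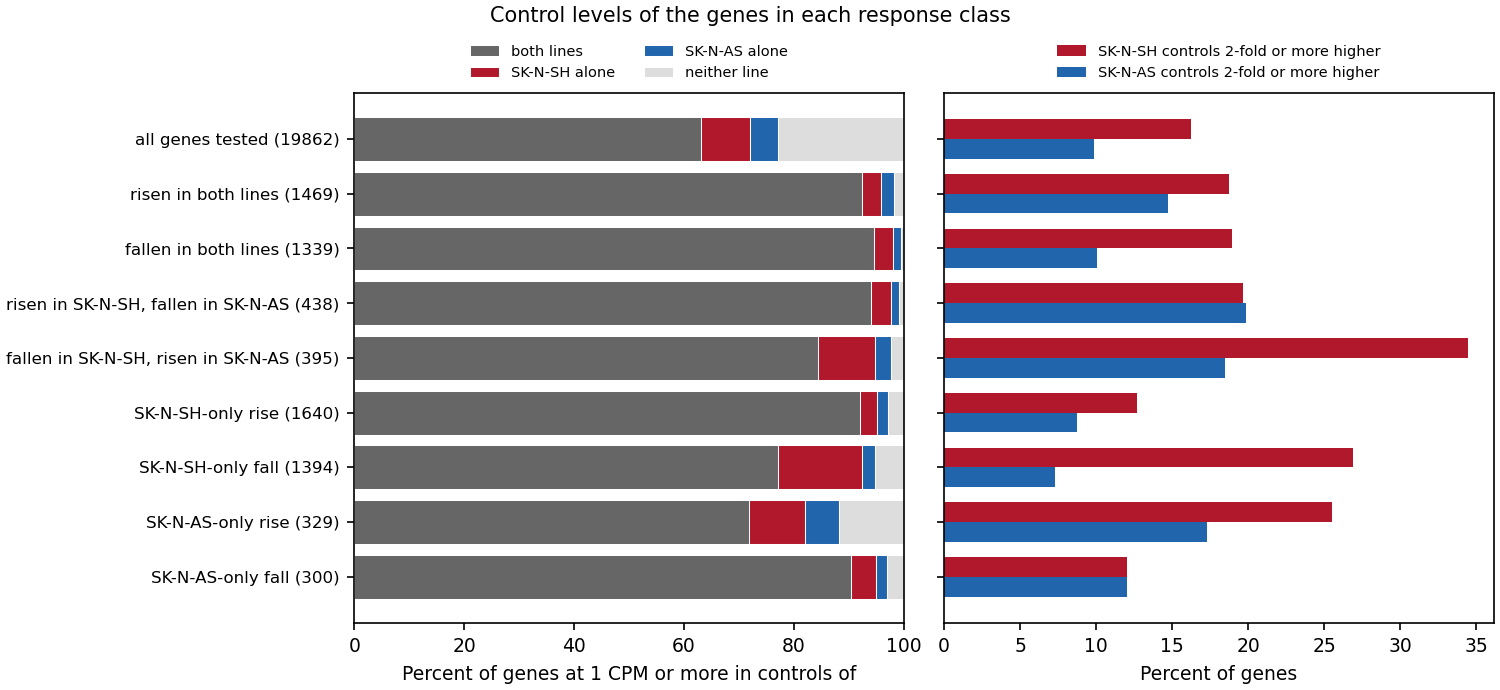
Left, stacked bars give the percent of genes in each response class at 1 CPM or more in the controls of both lines, 1 line or neither; right, bars give the percent whose controls differ by 2-fold or more, with gene numbers in brackets. Genes that fell in SK-N-SH and rose in SK-N-AS have the tallest bar for higher SK-N-SH controls (34.4%, against 16.2% of all tested genes).

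Genes were also placed by the gap between the lines in control level, on the log2(CPM + 0.5) scale. Where SK-N-SH was over 8-fold the higher (827 genes), 39.3% fell and 31.1% rose in SK-N-SH, and with the siRNA controls as the SK-N-SH level these were 42.4% and 20.5%. Where SK-N-AS was over 8-fold the higher (372 genes), 39.8% rose and 26.9% fell in SK-N-AS. Where the lines were within 2-fold (14679 genes), 17.7% fell and 20.7% rose in SK-N-SH, and 12.7% rose and 13.3% fell in SK-N-AS. Opposite change made up 3.07% of that middle stratum and 6.43% to 9.41% of the other 4. Change in the same direction made up 13.1% of the middle stratum and 15.6% to 18.4% of the others. On this scale genes low in both lines have small gaps, which lowers the shares of the middle stratum. Of all genes tested, 4565 were under 1 CPM in both sets of controls. Among them 26 rose in both, 8 fell in both, and 4 and 9 were in the opposite classes. The strata were not compared without these genes. Of the 1207 genes called in SK-N-SH that were under 1 CPM in SK-N-AS controls, 621 (51.4%) were called in SK-N-SH alone with no called difference. Of the 777 genes called in SK-N-AS that were under 1 CPM in SK-N-SH controls, 585 (75.3%) were called in SK-N-AS alone with no called difference.

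**Figure D5:**
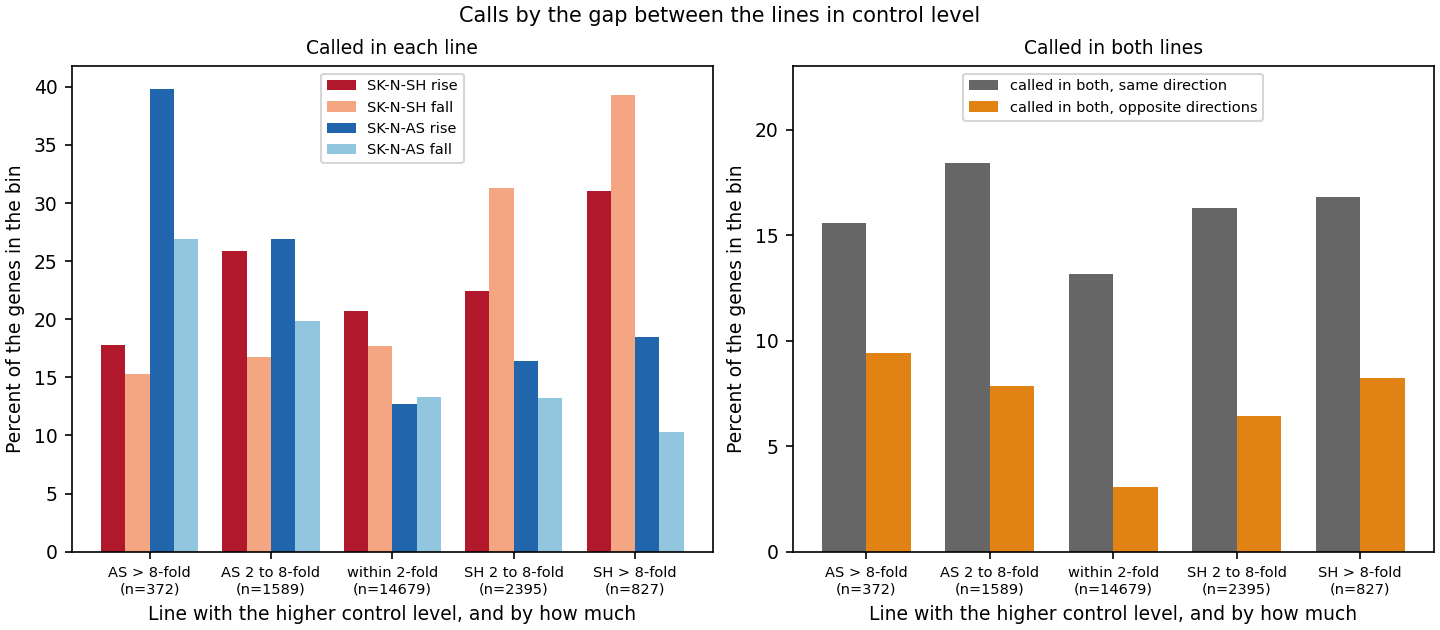
Genes are binned on the x axis by which line had the higher controls and by how much (log2(CPM + 0.5) scale, gene numbers under each bin); the y axis is the percent of the genes in the bin called in each line (left) or in both lines in the same or opposite directions (right). Opposite change is least frequent in the bin within 2-fold, at 3.07%, a bin that genes low in both lines tend to enter.

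The classes were last compared in sequence and position, with no test. RefSeq promoter windows of 300 bases (250 before the start site to 50 after) were found for 13166 tested genes. The AP-1 sequence TGANTCA, on either strand, was in 6.26% of the windows of shared rises and 3.40% of those of shared falls, beside 5.10% of all tested genes and 7.76% of all 27305 windows. Its lowest share was 2.43% (6 of 247 windows), in SK-N-AS-only falls. TATAAA was in 10.1% (31 of 308) of the windows of genes that fell in SK-N-SH and rose in SK-N-AS. It was in 3.75% (13 of 347) of the reverse class, beside 6.41% of tested genes. For GGAATG, the TEAD sequence, shares ran from 8.44% (fallen in SK-N-SH and risen in SK-N-AS) to 14.98% (SK-N-AS-only falls) over the 8 classes, beside 11.3% of tested genes. Shares for the E-box CAGGTG ran from 15.2% to 21.0% over the 8 classes, beside 18.2%, and those for CCAAT from 31.8% to 38.1%, beside 35.97%. Some members of a class are neighbours on the chromosome. OAS1 and OAS3 lie 4831 bases apart on chromosome 12, and NEFM and NEFL 31856 bases apart on chromosome 8. IFI16 and AIM2 lie 973 bases apart on chromosome 1, and CLDN11 and SLC7A14 lie 4814 bases apart on chromosome 3, and all 4 rose in SK-N-AS. In all 8 classes, a coding gene with a coding neighbour within 50 kb had its nearest neighbour in the same class more often than genes outside the class did. The nearest neighbour of a gene that fell in SK-N-SH and rose in SK-N-AS was in the same class for 14 of 257 (5.45%), beside 1.98% of genes outside the class. The reverse class gave 4.47% beside 2.72%, shared falls 15.1% beside 8.62%, and SK-N-AS-only falls 5.75% beside 1.91%.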

How the data were processed

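The 14 CRISPRi libraries were mRNA libraries (Illumina Stranded mRNA Prep, per the labels' protocols). The values are gene counts as the authors deposited them, 1 table for each line. Per the submitters' processing notes, bcl2fastq 2.20, FastQC 0.11.8, STAR 2.6.1d, featureCounts 1.5.1 and GRCh38 were used. The sources used here give neither annotation release nor strand setting. Genes were joined by Ensembl identifier. Genes in 1 table only (1226 in SK-N-SH, 18617 in SK-N-AS) held at most 0.0411% and 0.296% of reads. edgeR 4.0.16 (R 4.3.3) fitted the 4 groups together after filterByExpr (minimum count 10, total 15) and TMM scaling. Its quasi-likelihood test, with robust fits, gave each line's response and their difference, each adjusted by the Benjamini-Hochberg method over 19862 genes. The fit was first tested on simulated data. Replicate numbers did not pair the libraries. Members and gene lists were chosen with earlier results of these data known. Named genes were FAM167A, then, with separated groups and at least 5 CPM in a group, the 6 largest of each shared or opposite class by the smaller response, the 4 largest differences of each line-only class (1 CPM or more in both controls) and 3 more (under 1 CPM in the other line), and up to 3 of each list by adjusted p of the difference. Some named genes are not reported here. Other genes in the text illustrate list classes and were chosen after their values were seen. Alternatives were RLE scaling, library totals, DESeq2 1.42.0, limma 3.58.1 voom, other filters, a 2-fold minimum, a replicate block, separate fits, thinned SK-N-AS reads and leaving out each library.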

Additional observations from a re-analysis of the deposited data

Results flagged for a closer look

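The responses of the lines differed by the interaction test for FAM167A (-3.002 on the log2 scale, SK-N-SH minus SK-N-AS) and for 12 genes with opposite change. The differences were 3.22 for NIPAL4, 3.23 for EYA4, 3.21 for ELN, 2.74 for COL4A1, 2.56 for COL4A2 and 2.58 for SLC16A4. They were -4.35 for SLC7A14, -3.72 for ADCYAP1R1, -3.23 for SNX10, -4.08 for CUX2, -5.39 for PROKR2 and -2.87 for ARHGEF4.

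Among 220 groups of 4 SK-N-AS libraries examined for the named genes, 11 held a library far from the other 3, where chance gives about 1 group in 20. SK-N-AS control replicate 2 stood apart for CEMIP (16.1 CPM), NIPAL4 (0.462 CPM), CD55 (0.528 CPM) and ZNF467 (38.7 CPM). Control replicate 3 stood apart for PDIA3 (541 CPM). Knockdown replicate 4 stood apart for ACTG2 (0.0346 CPM), HHIPL2 (5.10 CPM) and RPS3 (462 CPM). Knockdown replicate 2 stood apart for PEG3 (0.0384 CPM) and MCM4 (263 CPM), and knockdown replicate 3 for YY2 (1.85 CPM).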

How the results depend on the processing

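With library totals as the only scaling, the SK-N-SH response was the higher for 1813 genes and the lower for 4932, with 811 SK-N-SH-only rises and 2612 SK-N-SH-only falls. Of the 300 SK-N-AS-only falls 86 (28.7%) were kept under it, and of the 1640 SK-N-SH-only rises 788 (48.0%). Without a filter on low counts, 264 genes rose in SK-N-SH and fell in SK-N-AS. With a 2-fold minimum, the SK-N-SH response was the higher for 410 genes and the lower for 1089, 49 genes rose and 82 fell in both lines, 13 rose in SK-N-SH and fell in SK-N-AS, and 42 did the reverse. SK-N-SH-only rises and falls were then 159 and 498, and those of SK-N-AS 82 and 33. The other 241 values, of these counts and of the FAM167A difference, stayed within 1.5 times the reported count or on the same side of the threshold, and none reversed.

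Leaving out each library in turn gave 2777 to 3175 genes with the higher and 2522 to 2954 with the lower SK-N-SH response. Genes risen in both numbered 1297 to 1432, fallen in both 1209 to 1353, risen in SK-N-SH and fallen in SK-N-AS 384 to 445, and the reverse 339 to 390. SK-N-SH-only rises were 1396 to 1682 and falls 1135 to 1483, and SK-N-AS-only rises 292 to 336 and falls 252 to 307. The FAM167A difference ran from -3.14 to -2.87.

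With the replicate number as a block, the SK-N-SH response was the higher for 3149 genes and the lower for 2853, and of the named genes only HES1 lost its call. Same-numbered libraries did not deviate together (r from -0.04 to 0.02), so the numbers do not pair them. With SK-N-AS thinned to the depth of SK-N-SH, ACTG2, PEG3, NLGN4X, CLSTN2 and DNAJA4 lost their called differences. DNAJA4 also lost its call with limma voom, with library totals and without the filter on low counts. The cause of these changes was not tested. Genes described by few reads in SK-N-AS were low there, in libraries deeper than those of SK-N-SH.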
